A study of Mus musculus with 4 samples.

Results

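The transcripts described here are those read from the mitochondrial DNA itself, taken as every row of the expression table whose gene symbol begins with mt-. These were 10 of 62046 rows, 9 protein-coding genes and 1 ribosomal RNA. RefSeq lists 37 genes on mouse mitochondrial DNA (13 protein-coding, 2 ribosomal RNA and 22 transfer RNA), and the other 27 were not analysed here as members. The cultures came from bone marrow of GM1082 knockout mice (genotype GM1082 KO, GM1082-/-) and of wild-type mice, and both groups spent 5 days in M-CSF, the growth factor under which marrow cells mature into macrophages. Each genotype has 2 libraries, made from total RNA. The labels give no age, sex or strain, do not say how the allele was made or whether replicates are different mice, and p-values therefore measure only the spread between these libraries, which may be technical.

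Mitochondrial DNA is a small circle read from both strands into long precursor RNAs, which are cut mainly at the transfer RNAs that lie between the other genes. Its protein-coding genes all make subunits of the respiratory chain and the ATP synthase, while most subunits of the same complexes, and all the proteins that transcribe, cut, protect and translate mitochondrial RNA, come from nuclear genes. Because neighbouring genes leave the DNA on one precursor, their levels are not independent of each other.

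FPKM (fragments per kilobase of gene, scaled to the number of mapped fragments) carries no counts as such, but mitochondrial genes have no introns and the depth could be recovered. Low values of other rows put 1 FPKM in a 1 kb gene at 17.7 and 18.1 fragments in knockout replicates 1 and 2 and at 19.1 fragments in both wild-type replicates. With these factors the values of all 16 rows placed on mitochondrial DNA fell within 0.0095 of a whole number of fragments, so fragment numbers are given below. Macrophage genes marked all 4 cultures (10 rows, Itgam on 2 of them, with summed levels of 1944 and 2171 FPKM in the knockout libraries and of 2521 and 2497 FPKM in the wild-type libraries), and none of these rows was at 0 in a library. Markers of neutrophils were abundant too (10 markers, 21089 and 18156 FPKM in the knockout libraries, against 17035 and 16025 FPKM in the wild-type libraries). Most of the macrophage sum was Lyz2 and most of the neutrophil sum was S100a8 and S100a9, and sums without these genes are given below. In such mixed bulk cultures fewer cells of a type and less RNA per cell cannot be told apart. The targeted gene could not serve as a check of the labels. Its symbol is a RefSeq synonym of Arhgap33os, whose span on chromosome 7 (30515122 to 30522193) equals that of the row NONMMUG078287.1, at 0.0639 and 0.0624 FPKM in the knockout libraries and 0.0792 and 0.0198 FPKM in the wild-type libraries.

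All 10 members lay on the plus strand of the table, and all 10 had the start and end of a RefSeq gene on GRCm38.p6. In the order of the DNA they were mt-Rnr2 (1094 to 2675), mt-Nd2 (3914 to 4951), mt-Co1 (5328 to 6872), mt-Co2 (7013 to 7696), mt-Atp8 (7766 to 7969), mt-Atp6 (7927 to 8607), mt-Co3 (8607 to 9390), mt-Nd4l (9877 to 10173), mt-Nd4 (10167 to 11544) and mt-Cytb (14145 to 15288). Each span is a whole gene without introns. Some of these genes overlap, by 43 bp between mt-Atp8 and mt-Atp6, 1 bp between mt-Atp6 and mt-Co3 and 7 bp between mt-Nd4l and mt-Nd4. No source used here says how a fragment in an overlap was assigned.

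By their level per length the members fell into a high, a middle and a near-empty set. The high set was mt-Co1, mt-Cytb, mt-Nd4 and mt-Nd2. The middle set was mt-Co2, mt-Co3, mt-Atp6 and mt-Nd4l, and the near-empty set was mt-Atp8 and mt-Rnr2. The middle genes and mt-Atp8 form 1 unbroken run of members, with mt-Nd2 and mt-Co1 before it and mt-Nd4 and mt-Cytb after it. The sets also differed in gene length. The high set ran from 1038 to 1545 bp, and the middle genes and mt-Atp8 from 204 to 784 bp, while mt-Rnr2 had 1582 bp. The part of gene length in these levels was not tested.

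mt-Co1, which encodes the catalytic subunit of cytochrome c oxidase (complex IV), stood at 4020 and 4813 FPKM in knockout replicates 1 and 2, against 4862 and 4595 FPKM in wild-type replicates 1 and 2. It was the fourth most abundant row of the whole table in knockout replicate 1 and the third in each other library, and it rested on 110059 and 134952 fragments in the knockout and 143268 and 135492 in wild type. It alone made up 77.0% and 74.2% of the summed FPKM of the 9 protein-coding members in the knockout libraries and 77.1% and 76.0% in the wild-type libraries.

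The remaining genes of the high set followed at some distance. mt-Cytb, the cytochrome b of complex III, was at 548 and 710 FPKM in knockout replicates 1 and 2 and at 665 and 680 FPKM in wild-type replicates 1 and 2. mt-Nd4, a membrane subunit of complex I, was at 298 and 403 FPKM in the knockout and 377 and 353 FPKM in wild type. mt-Nd2, another membrane subunit of complex I, was at 265 and 435 FPKM in the knockout and 294 and 302 FPKM in wild type. For all 3 genes the wild-type libraries lay between the knockout libraries, of which replicate 1 was the low one and replicate 2 the high one. In units per length mt-Co1 exceeded mt-Cytb by 6.76 to 7.34 times, mt-Nd4 by 12.0 to 13.5 times and mt-Nd2 by 11.1 to 16.6 times over the 4 libraries.

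The middle set contains the other cytochrome c oxidase core subunits, so genes of one complex differed widely. mt-Co2, which takes up electrons from cytochrome c, was at 45.5 and 63.8 FPKM in knockout replicates 1 and 2 and at 55.2 and 56.7 FPKM in wild-type replicates 1 and 2. mt-Co3, also a core subunit, was at 20.3 and 27.9 FPKM in the knockout and 23.3 and 27.7 FPKM in wild type. Per length mt-Co1 was 75.4 to 88.3 times as high as mt-Co2 and 166 to 209 times as high as mt-Co3.

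mt-Atp6, a subunit of the proton channel of ATP synthase, was at 11.5 and 16.4 FPKM in knockout replicates 1 and 2 (139 and 203 fragments) and at 13.8 and 14.6 FPKM in the wild-type libraries (179 and 190 fragments). mt-Nd4l, a small membrane subunit of complex I, was at 11.8 and 16.5 FPKM in the knockout (62 and 89 fragments) and 13.8 and 12.0 FPKM in wild type (78 and 68 fragments). The same order of libraries held, with wild type between the knockout replicates. mt-Nd4l (297 bp) and mt-Nd4 (1378 bp) are translated from the same messenger RNA. Yet mt-Nd4 was 24.4 to 29.5 times as high per length in the 4 libraries, and the part of gene length in this ratio was not tested.

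The near-empty set rested on single fragments. mt-Atp8, a small subunit of ATP synthase whose reading frame overlaps that of mt-Atp6, had 3 and 5 fragments in knockout replicates 1 and 2 and 2 and 5 fragments in wild-type replicates 1 and 2 (0.830 and 1.35 FPKM in the knockout, against 0.514 and 1.28 FPKM in wild type). mt-Rnr2, the 16S RNA of the mitochondrial ribosome, had 6 and 3 fragments in the knockout and 5 and 5 in wild type. Its level was 0.214 and 0.104 FPKM in the knockout, against 0.166 and 0.166 FPKM in wild type. The exact Poisson 95% intervals of these counts cover counting error only. They ran from 0.619 to 13.1 fragments over both genes and both knockout libraries and from 0.242 to 11.7 fragments in wild type. No difference was detectable at counts this low. The labels do not say whether ribosomal RNA was removed. A lncRNA row described below, NONMMUG044354.2 (1149 to 3703), also covers most of mt-Rnr2. How fragments that lie in both were assigned is not given, so the level of mt-Rnr2 is uncertain.

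**Figure D1:**
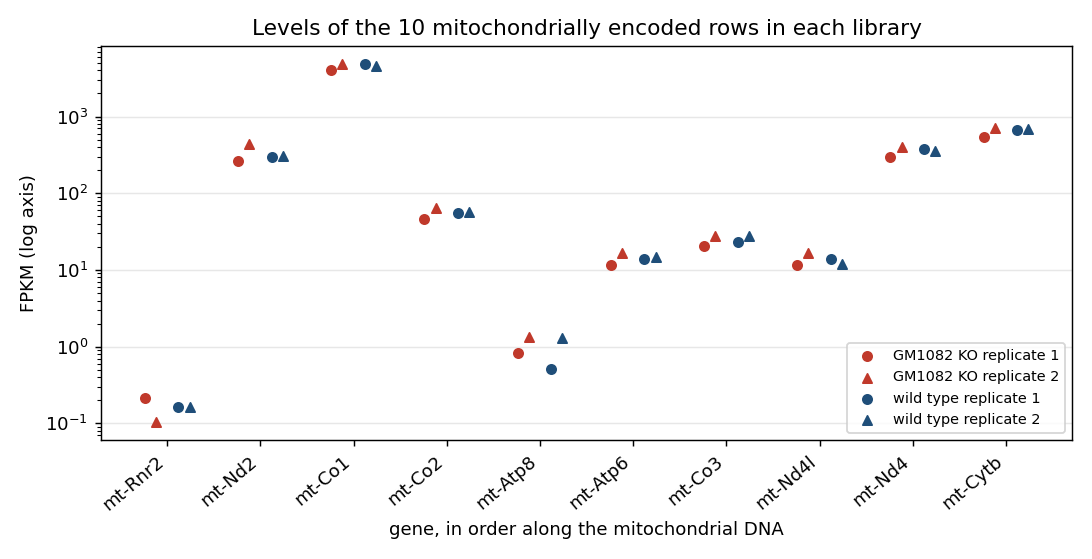
FPKM on a log axis (vertical) for the 10 members in their order along the mitochondrial DNA (horizontal), with 1 point per library, knockout in red and wild type in blue. mt-Co1 lies at 4020 to 4862 FPKM and mt-Cytb at 548 to 710 FPKM, while the run from mt-Co2 to mt-Nd4l stays between 0.514 and 63.8 FPKM and mt-Rnr2 between 0.104 and 0.214 FPKM.

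The table also holds 6 rows described as lncRNA that lie on mitochondrial DNA and fill some of the gaps between members. NONMMUG044353.2 has the exact span of the RefSeq gene mt-Rnr1 (70 to 1024), the 12S ribosomal RNA. It was at 50.8 and 49.2 FPKM in knockout replicates 1 and 2 (860 and 852 fragments) and at 48.1 and 23.7 FPKM in the wild-type libraries (876 and 432 fragments). Wild-type replicate 2 was thus the low library and the others were close together. The groups did not overlap, as for 30.9% of all rows tested, and the log2 change was 0.55 (SE 0.30, limma adjusted p = 1). NONMMUG044358.2 covers the transfer RNA gene TrnP and most of the control region (15356 to 16294), and was at 12.0 and 20.8 FPKM in the knockout and 14.0 and 15.3 FPKM in wild type, again with the wild-type libraries in between.

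On the minus strand, NONMMUG044356.2 (11720 to 14070) covers ND6, a complex I gene of the minus strand, and lies opposite ND5. It was at 1.97 and 1.80 FPKM in the knockout libraries and 1.81 and 1.92 FPKM in the wild-type libraries (82 and 77 fragments in the knockout, against 81 and 86 in wild type). NONMMUG044355.2 (9203 to 9888), opposite the end of mt-Co3 and all of ND3, was at 0.905 and 1.37 FPKM in the knockout and 1.30 and 1.37 FPKM in wild type. No source used here says whether strand was used in counting, and reads of a gene and of its opposite strand may therefore not be told apart. NONMMUG044354.2 (1149 to 3703), which spans most of mt-Rnr2 and of ND1, held 34 and 45 fragments in the knockout and 28 and 38 in wild type. NONMMUG044357.2 (13570 to 14143) held 0 and 0 fragments in the knockout and 1 and 1 in wild type.

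Several middle-set genes have a counterpart among predicted genes on chromosome 1, where mouse nuclear DNA is known to carry a close copy of part of the mitochondrial genome. These rows were looked up after the table was seen. 5 predicted genes lie side by side on the minus strand there, in mirrored order: Gm10925 (24613974 to 24614651), Gm28437 (24613189 to 24613971), Gm28438 (24612775 to 24613119), Gm10222 (24612407 to 24612700) and Gm28439 (24611535 to 24612410). Adding the end of each to the start of mt-Atp6, mt-Co3, ND3, mt-Nd4l and mt-Nd4 in turn gave 24622577 or 24622578 every time, so the spacing of starts is the same within 1 bp. Their lengths were 678, 783, 345, 294 and 876 bp, against 681, 784, 348, 297 and 1378 bp for the mitochondrial genes.

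Gm28437 was at 14.7 and 22.0 FPKM in knockout replicates 1 and 2 and at 16.6 and 19.8 FPKM in wild-type replicates 1 and 2, which is 0.724 and 0.787 times the level of mt-Co3 in the knockout and 0.714 and 0.716 times in wild type. Gm10925 was at 3.99 and 6.42 FPKM in the knockout and 5.80 and 5.18 FPKM in wild type, or 0.347 and 0.391 times mt-Atp6 in the knockout and 0.421 and 0.354 times in wild type. Gm10222 was at 5.18 and 7.12 FPKM in the knockout and 6.24 and 5.70 FPKM in wild type, or 0.440 and 0.431 times mt-Nd4l in the knockout and 0.453 and 0.475 times in wild type. These nuclear rows thus stood within a factor of 3 of their mitochondrial counterparts.

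Gm28439, which mirrors the start of mt-Nd4, was at 3.99 and 4.78 FPKM in the knockout and 4.67 and 4.90 FPKM in wild type, or 0.0119 to 0.0139 times mt-Nd4 over the 4 libraries. Gm28438, at the place of ND3, was at 3.27 and 7.03 FPKM in the knockout and 4.56 and 5.32 FPKM in wild type. Reads that match both places could be counted at either, at both or at neither, and no source used here gives the rule. The levels of mt-Atp6, mt-Co3, mt-Nd4l and mt-Nd4 and of these 5 rows are therefore uncertain, and the part of shared reads in them was not tested. Only these 5 rows were looked up, so the mirrored places of other members, such as mt-Co2 of the middle set, were not searched. mt-Nd4 belongs to the high set, and its row Gm28439 mirrors only its start (876 bp against 1378 bp).

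**Figure D2:**
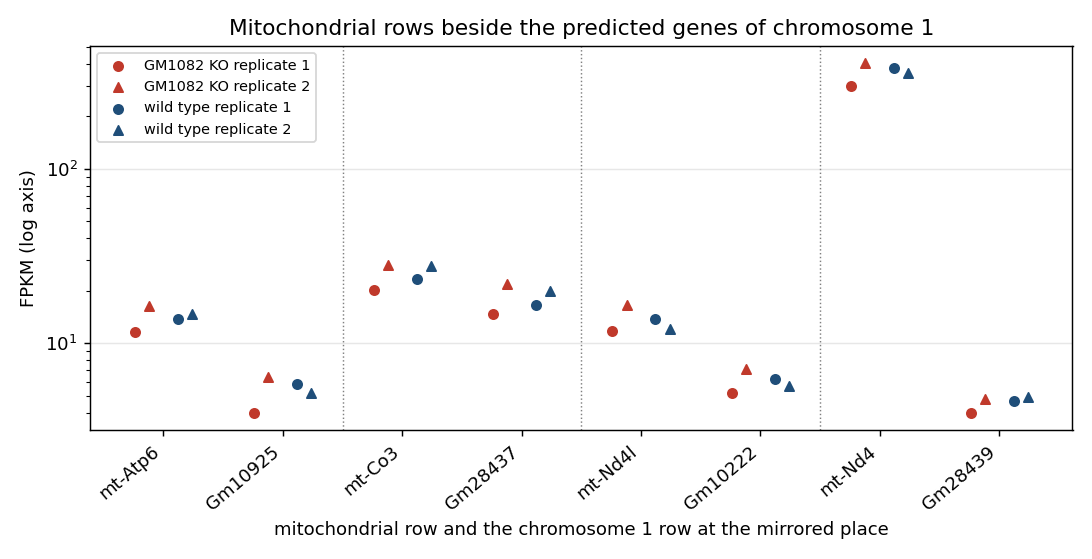
FPKM on a log axis (vertical) for 4 mitochondrial genes, each beside the predicted gene at the mirrored place on chromosome 1 (horizontal), with 1 point per library. mt-Co3 and Gm28437 lie close together (20.3 to 27.9 and 14.7 to 22.0 FPKM), whereas mt-Nd4 lies at 298 to 403 FPKM and Gm28439 at 3.99 to 4.90 FPKM.

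Between the genotypes no member passed the test. Of the 10 members, 8 averaged 1 FPKM or more across the libraries and were tested on log2(FPKM + 1) with limma across all 24535 rows that passed this filter, and mt-Atp8 and mt-Rnr2 did not pass it. None of the 8 reached an adjusted p of 0.05 with limma, where 0.0122% of all rows did (0.00815% higher and 0.00408% lower in the knockout), and none had an unadjusted p below 0.05, where 5.36% of all rows did. The knockout and wild-type libraries overlapped for all 8, while 30.9% of all rows had groups that did not overlap. The median log2 change of the 8 was -0.06, against -0.01 over all rows.

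The fitted changes were small, but their intervals were wide. mt-Nd2 had the largest, with a log2 change of 0.19 (SE 0.23, 95% interval -0.38 to 0.76, limma adjusted p = 1). mt-Nd4l was at 0.11 (SE 0.18, interval -0.32 to 0.55). The other 6 had negative values, which were -0.11 for mt-Cytb, -0.10 for mt-Co1, -0.09 for mt-Co3, -0.08 for mt-Nd4, -0.05 for mt-Co2 and -0.04 for mt-Atp6. Their intervals ran from -0.54 to 0.39. With 2 libraries per genotype a change within these bounds could not be told from none, and the data do not show that the genotypes are alike.

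The wider contrast was inside the knockout group. Knockout replicate 1 was the lowest of the 4 libraries for all 8 tested members, where it was the lowest for 33.4% of all rows, and knockout replicate 2 was the highest for 7 of them, where it was the highest for 27% of all rows. Both held for the same 7, against 12.3% of all rows. The exception was mt-Co1, which was highest in wild-type replicate 1. On the log2(FPKM + 1) scale, knockout replicate 2 exceeded replicate 1 by 0.26 (mt-Co1) to 0.71 (mt-Nd2). The median was 0.45, whereas the median over all rows was 0.03. A difference at or above that of mt-Co1 was found in 18.1% of all rows. The difference between wild-type replicates 2 and 1 was -0.18 to 0.24 with a median of 0.04. These members share precursor RNAs, library and scaling, so these are not independent observations.

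Counting error was smaller than this spread for most members. The exact Poisson 95% intervals of knockout replicates 1 and 2 were apart for 7 of the 10 members, with mt-Nd4l, mt-Atp8 and mt-Rnr2 as the exceptions, and those of wild-type replicates 1 and 2 were apart for 2, mt-Co1 and mt-Nd4. For mt-Nd2 the intervals were 258 to 273 FPKM in knockout replicate 1 and 426 to 445 FPKM in knockout replicate 2, against 286 to 301 FPKM and 295 to 310 FPKM in wild-type replicates 1 and 2. Reads were not marked by molecular identifiers as far as the labels say, so these intervals cover counting error only.

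As a whole, the 10 members took 0.758% and 0.934% of mapped fragments in knockout replicates 1 and 2, against 0.917% and 0.875% in wild-type replicates 1 and 2. The Wilson 95% intervals were 0.754% to 0.762% and 0.929% to 0.938% in the knockout, and 0.912% to 0.921% and 0.871% to 0.879% in wild type. The 4 shares thus differed beyond counting error, and the wild-type values lay between those of the knockout. In summed FPKM the share was 1.82% ± 0.297 in the knockout and 1.95% ± 0.053 in wild type (SD, n = 2 each), a difference of -0.13 percentage points, smaller than the SD of the knockout libraries. With 2 libraries against 2 no exact permutation test can reach 0.05, and no p is given.

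**Figure D3:**
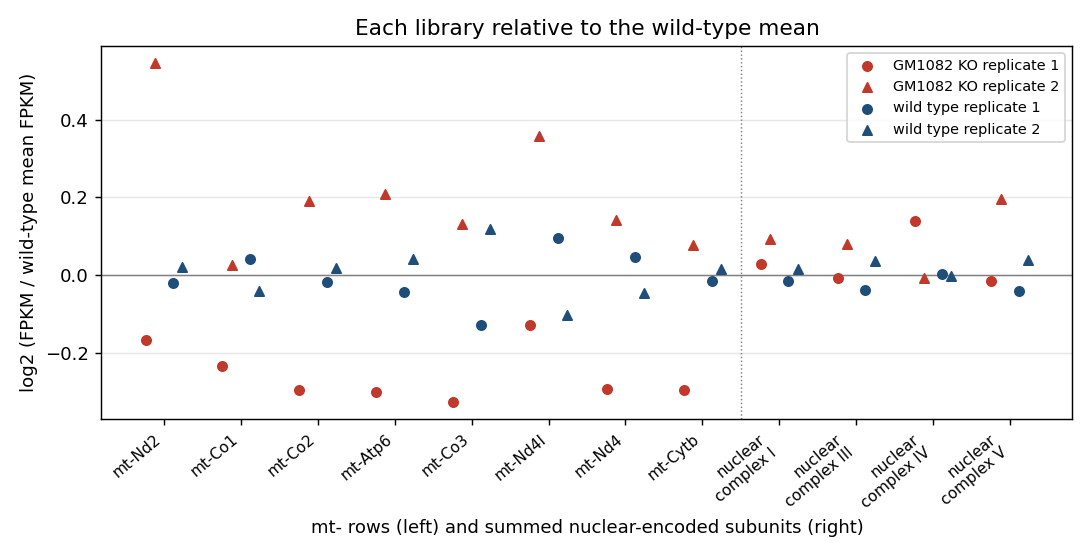
The log2 ratio of each library to the wild-type mean (vertical) for the 8 tested members and for the summed nuclear-encoded subunits of complexes I, III, IV and V (horizontal), with 1 point per library. Knockout replicate 1 is the lowest point for every member, and knockout replicate 2 is the highest except for mt-Co1. Among the nuclear sums, knockout replicate 1 is the lowest in none of the 4 complexes.

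Shares within the mitochondrial set were also compared. Among the 9 protein-coding members mt-Cytb held 10.5% and 10.9% of summed FPKM in knockout replicates 1 and 2 and 10.5% and 11.3% in wild-type replicates 1 and 2. mt-Nd4 held 5.71% and 6.21% in the knockout and 5.98% and 5.85% in wild type. mt-Nd2 stood out in 1 library, with 5.08% and 6.71% in the knockout and 4.66% and 5.01% in wild type. The 5 rows from mt-Co2 to mt-Nd4l together held 1.72% and 1.94% in the knockout and 1.69% and 1.86% in wild type.

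Cell type markers differed between the same libraries. Knockout replicate 1, the library with the lowest mitochondrial levels, had the highest summed neutrophil markers (21089 FPKM) and the highest summed markers of eosinophils, mast cells and basophils (8 markers, 214 and 110 FPKM in knockout replicates 1 and 2, against 74.8 and 83.6 FPKM in wild-type replicates 1 and 2). Few genes carried some of these sums, so each was also taken, after the values were seen, without genes that held over 0.3 of it. Without S100a8 and S100a9, the other 8 neutrophil markers summed to 2184 and 1030 FPKM in knockout replicates 1 and 2, against 1057 and 1059 FPKM in wild-type replicates 1 and 2, so that replicate 1 stood apart and replicate 2 was the lowest. Without Prg2, the eosinophil, mast cell and basophil sum was 116 and 71.8 FPKM in the knockout and 49.9 and 59.2 FPKM in wild type, in which replicate 1 was again the highest. The macrophage sum was lowest in knockout replicate 1 (1944 FPKM) through Lyz2 (1373 and 1586 FPKM in the knockout and 1907 and 1935 FPKM in wild type). Without Lyz2 the other 9 rows summed to 571 and 585 FPKM in the knockout and 614 and 562 FPKM in wild type, with wild-type replicate 2 the lowest, and knockout replicate 1 was the lowest library for 4 of the 9 macrophage rows tested. Summed B cell markers (8 markers) were 354 and 327 FPKM in the knockout and 261 and 390 FPKM in wild type, erythroid markers (8) 14.4 and 14.7 FPKM in the knockout and 16.3 and 18.1 FPKM in wild type, and progenitor markers (8) 44.9 and 40.2 FPKM in the knockout and 33.5 and 39.1 FPKM in wild type. T and NK cell markers (8) summed to 1.79 and 2.78 FPKM in the knockout and 1.64 and 2.12 FPKM in wild type, with Trac, Ncr1 and Gzma at 0 in at least 1 library. The part of cell makeup in the mitochondrial levels was not tested.

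The nuclear partners of the same complexes showed a smaller median difference between the knockout libraries. Of 74 nuclear genes for subunits of complexes I, III, IV and V found in the table, 69 were tested and 0 passed with limma in either direction (at an unadjusted p under 0.05, 1 was higher and 0 lower). Their median log2 change was 0.04, and 11 were higher and 4 lower without overlap, where 13.2% and 17.7% of all rows were. Their median difference between knockout replicates 2 and 1 was 0.09 on the log2(FPKM + 1) scale, and knockout replicate 1 was the lowest library for 20 of the 69, where it was for 33.4% of all rows. Summed, they stood at 2278 and 2359 FPKM in knockout replicates 1 and 2 and at 2179 and 2241 FPKM in wild-type replicates 1 and 2.

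The mitochondrially encoded sum holds 9 of the 13 protein-coding genes that RefSeq lists, without ND1, ND3, ND5 and ND6 of complex I. Against the nuclear sums, its log2 ratio was 1.20 and 1.46 in knockout replicates 1 and 2. In wild-type replicates 1 and 2 the log2 ratio was 1.53 and 1.43. The means were 1.33 ± 0.19 in the knockout and 1.48 ± 0.07 in wild type (SD, n = 2 each), a difference of -0.15 that was smaller than the SD of the knockout libraries. By complex, the ratio of mitochondrial to nuclear sums was 5.94 and 7.88 in the knockout and 7.89 and 7.49 in wild type for complex IV, and 2.08 and 2.53 in the knockout and 2.57 and 2.50 in wild type for complex III. For complex I, with only mt-Nd2, mt-Nd4 and mt-Nd4l in the mitochondrial sum, it was 0.830 and 1.18 in the knockout. In wild type the complex I ratio was 1.02 and 0.973. It covers a part of the mitochondrial subunits, so its level cannot be ranked against the other complexes. For complex V, whose mitochondrial members both belong to the low run, it was 0.0195 and 0.0242 in the knockout and 0.0230 and 0.0242 in wild type. Knockout replicate 1 had the lowest ratio in each of the 4 complexes.

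**Figure D4:**
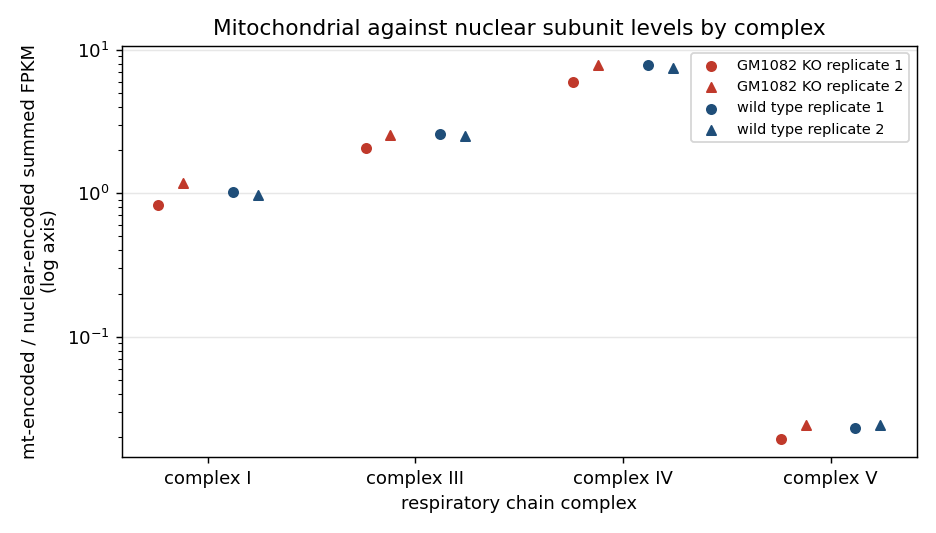
Ratio of the summed FPKM of mitochondrially encoded to nuclear-encoded subunits on a log axis (vertical) for complexes I, III, IV and V (horizontal), with 1 point per library. The ratio runs from 5.94 to 7.89 for complex IV down to 0.0195 to 0.0242 for complex V, and knockout replicate 1 is the lowest point in each complex. The mitochondrial sum of complex I holds only mt-Nd2, mt-Nd4 and mt-Nd4l, so its level cannot be ranked against the others.

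The 2 nuclear subunits of each complex with the smallest unadjusted p had higher means in the knockout, and none passed. They do not stand for all subunits tested. Log2 changes were positive for 22 and negative for 13 in complex I, and 4 and 4 in complex III. They were 8 and 2 in complex IV, 11 and 5 in complex V and 3 and 0 in complex II. Cox5b, a subunit of complex IV, was at 20.2 and 22.0 FPKM in knockout replicates 1 and 2 and at 16.2 and 16.3 FPKM in wild-type replicates 1 and 2 (limma adjusted p = 0.817). Cox6a1 of the same complex was at 73.9 and 49.6 FPKM in the knockout and 38.4 and 47.0 FPKM in wild type. Cyc1, the cytochrome c1 of complex III, was at 27.2 and 25.4 FPKM in the knockout and 20.4 and 22.9 FPKM in wild type. The groups did not overlap for these 3 genes, which were picked by their p, and for 30.9% of all rows. Uqcr11 of complex III overlapped, at 35.0 and 27.2 FPKM in the knockout and 21.0 and 28.4 FPKM in wild type.

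For complex I, Ndufb7 averaged 7.93 ± 0.796 FPKM in the knockout and 6.16 ± 0.415 FPKM in wild type, and Ndufb10 averaged 22.7 ± 0.816 FPKM in the knockout and 18.9 ± 1.11 FPKM in wild type (SD, n = 2 each). For complex V, Atp5k averaged 12.9 ± 3.94 FPKM in the knockout and 8.68 ± 1.21 FPKM in wild type, while Atp5e averaged 38.4 ± 1.35 FPKM in the knockout and 32.8 ± 0.997 FPKM in wild type. Complex II has no mitochondrially encoded subunit. Its 3 matched genes were tested and 0 passed, with Sdhc at 18.3 ± 1.32 FPKM in the knockout and 15.9 ± 0.0763 FPKM in wild type and Sdhb at 23.6 ± 3.18 FPKM in the knockout and 22.6 ± 0.932 FPKM in wild type. The limma adjusted p-values of all genes in this paragraph lay between 0.954 and 1.

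The nuclear genes that read, cut, keep and translate mitochondrial RNA were examined in 8 lists. Of 179 different genes found, 171 were tested and 0 passed in either direction with limma (at an unadjusted p under 0.05, 3 were higher and 0 lower, smallest adjusted p = 0.889). Their median log2 change was 0.01, and 20 were higher and 16 lower without overlap, where 13.2% and 17.7% of all rows were. Knockout replicate 1 was the lowest library for 72 of the 171, and for 33.4% of all rows.

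Among 10 transcription genes, 4 had a positive and 6 a negative log2 change. Polrmt, the mitochondrial RNA polymerase, was at 3.83 and 3.21 FPKM in knockout replicates 1 and 2 and at 3.55 and 3.96 FPKM in wild-type replicates 1 and 2. Tfam, which packs mitochondrial DNA and starts its transcription, was at 2.62 and 2.71 FPKM in the knockout and 2.07 and 2.79 FPKM in wild type. Both overlapped between the genotypes. Mterf3, a repressor of mitochondrial transcription, was at 5.43 and 6.13 FPKM in the knockout and 7.48 and 6.80 FPKM in wild type, and Mterf1b averaged 2.52 ± 0.361 FPKM in the knockout and 2.01 ± 0.0281 FPKM in wild type (SD, n = 2 each).

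Of 15 genes of mitochondrial DNA replication and upkeep, all were tested, 8 with a positive and 7 with a negative log2 change. Rrm2b, a ribonucleotide reductase subunit that supplies nucleotides outside S phase, averaged 4.94 ± 0.298 FPKM in the knockout and 6.05 ± 0.222 FPKM in wild type (SD, n = 2 each). Polg2, the accessory subunit of the mitochondrial DNA polymerase, averaged 3.08 ± 0.0791 FPKM in the knockout and 3.75 ± 0.198 FPKM in wild type. The groups did not overlap for either gene, and neither passed (limma adjusted p = 1 for each).

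Processing and stability genes likewise did not pass. Elac2, which cuts the 3' ends of transfer RNAs out of the precursor, was at 8.97 and 8.98 FPKM in knockout replicates 1 and 2 and at 7.36 and 9.23 FPKM in wild-type replicates 1 and 2. Trmt10c, a subunit of the enzyme that cuts their 5' ends, was at 5.73 and 6.15 FPKM in the knockout and 6.18 and 6.58 FPKM in wild type. Lrpprc, which stabilises mitochondrial messenger RNAs together with Slirp, was at 7.88 and 9.83 FPKM in the knockout and 8.19 and 9.76 FPKM in wild type. Its partner Slirp stood at 0.291 and 0.249 FPKM in the knockout and 0.490 and 0.338 FPKM in wild type, under the filter and not tested.

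In the processing list, Nsun4, a methyltransferase of mitochondrial ribosomal RNA, averaged 3.49 ± 0.197 FPKM in the knockout and 2.79 ± 0.011 FPKM in wild type, and Trit1, which modifies transfer RNAs, averaged 8.36 ± 0.539 FPKM in the knockout and 7.50 ± 0.270 FPKM in wild type (SD, n = 2 each). In the stability list, the median difference between knockout replicates 2 and 1 was 0.23, the highest of the 8 lists, and replicate 1 was the lowest library for 11 of 17 genes tested, where it was for 33.4% of all rows. Fastkd5, which is needed for cuts that no transfer RNA marks, was at 2.00 and 3.03 FPKM in the knockout and 2.03 and 1.95 FPKM in wild type, and Fastk, of the same family, at 9.65 and 6.79 FPKM in the knockout and 6.76 and 7.42 FPKM in wild type.

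The 3 unadjusted p-values under 0.05 all belonged to proteins of the small mitochondrial ribosomal subunit. Of 27 such proteins tested, 15 had a positive and 12 a negative log2 change. Mrps27 was at 6.39 and 8.21 FPKM in knockout replicates 1 and 2 and at 5.11 and 5.36 FPKM in the wild-type libraries, and Mrps28 was at 3.96 and 3.66 FPKM in the knockout and 3.01 and 2.41 FPKM in wild type (limma adjusted p = 0.889 and 0.921). Of 45 tested proteins of the large subunit, Mrpl46 averaged 7.74 ± 0.270 FPKM in the knockout and 6.15 ± 0.521 FPKM in wild type, while Mrpl52 averaged 19.0 ± 3.55 FPKM in the knockout and 15.2 ± 1.40 FPKM in wild type (SD, n = 2 each). Tsfm, a translation elongation factor, averaged 4.41 ± 0.0478 FPKM in the knockout and 3.65 ± 0.177 FPKM in wild type, and Mtrf1l, a release factor, averaged 5.10 ± 0.434 FPKM in the knockout and 4.55 ± 0.00225 FPKM in wild type.

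The 21 tested synthetases that load amino acids onto mitochondrial transfer RNAs had 10 positive and 11 negative log2 changes. Gars, which serves both the cytosol and the mitochondria, was at 59.8 and 66.3 FPKM in the knockout and 72.8 and 75.0 FPKM in wild type, without overlap, and Fars2 averaged 5.32 ± 0.541 FPKM in the knockout and 6.18 ± 0.216 FPKM in wild type (SD, n = 2 each). Of 10 regulators of mitochondrial biogenesis, 9 were tested and 0 passed with limma (0 at an unadjusted p below 0.05). Myc, which drives growth genes including many of the mitochondrion, averaged 38.9 ± 3.25 FPKM in the knockout and 32.9 ± 2.29 FPKM in wild type, and Gabpb1, a partner of the regulator Gabpa, averaged 4.55 ± 0.356 FPKM in the knockout and 5.08 ± 0.677 FPKM in wild type.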

How the data were processed

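The authors deposited one table of FPKM values, already scaled to gene length and mapped fragments, with Ensembl and NONCODE rows. Bowtie 0.12.2 and the build mm9 are named per the submitters' processing notes. No source used here names the counting tool, its use of strand or how it treated multi-matching reads. The coordinates matched RefSeq on GRCm38.p6. Members and lists were chosen with earlier results of these data known. All 10 members were named, and of each nuclear list the 2 genes with the smallest unadjusted p together with Tfam, Polrmt, Lrpprc, Slirp, Elac2 and Trmt10c. Rows averaging 1 FPKM or more were tested on log2(FPKM + 1), which understates changes of low genes, with limma 3.58.1 in R 4.3.3 (eBayes with a variance trend, no replicate block, Benjamini-Hochberg adjustment over 24535 rows, threshold 0.05). Changes are knockout minus wild type. Fragment numbers were FPKM times length times a factor per library, from noncoding rows of 1000 to 3000 bp off the mitochondrial DNA, of whose low values 83.5% to 84.2% lay within 0.05 of a whole number. Alternatives were another pseudocount, filter, scaling or variance model, a replicate block, and each library left out.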

Additional observations from a re-analysis of the deposited data

How the results depend on the processing

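With limma, 0 of the mt- rows passed under the main setting and under each of the 12 alternatives fitted (at an unadjusted p under 0.05, 1 without knockout replicate 1, 1 without knockout replicate 2 and 0 otherwise). The median log2 change of the protein-coding members ran from -0.29 (without knockout replicate 2) to 0.16 (without knockout replicate 1) with 1 library left out. For single members these ranges were -0.28 to 0.20 for mt-Atp6, -0.23 to 0.0259 for mt-Co1, -0.29 to 0.19 for mt-Co2, -0.31 to 0.13 for mt-Co3, -0.30 to 0.0784 for mt-Cytb, -0.17 to 0.55 for mt-Nd2, -0.29 to 0.14 for mt-Nd4 and -0.12 to 0.34 for mt-Nd4l, so the sign of each turned when 1 knockout library was left out, and that of mt-Co3 also without wild-type replicate 2. The mt- share of summed FPKM differed by -0.34 to 0.08 percentage points and the log2 ratio to nuclear subunits by -0.29 to -0.02. Over all rows there were 3 calls, 0 with a filter of 0.1 FPKM or none, 6 with the replicate block and 0 to 24 with 1 library left out. The correlation of same-numbered deviations was 0.05 over rows, which cannot tell whether replicate numbers pair the libraries. The replicate block changed no call among the members. mt-Rnr2 and mt-Atp8, under the filter, had log2 changes of -0.0096 and 0.16 with a filter of 0.1 FPKM and with none (limma adjusted p 0.934 to 0.999). Other settings gave no value for mt-Rnr2 or mt-Atp8, and no transfer RNA had an mt- row to fit. The fits of mt-Atp8 and mt-Rnr2 rest on at most 6 fragments per library, and why these counts were so low was not tested.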
